A study of Mus musculus with 6 samples.

Results

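The histone genes described here are protein-coding mouse genes whose symbols begin with Hist1h, Hist2h, Hist3h, Hist4h, H2af, H3f or H1f and that had at least 10 counts summed over the 6 samples. GENCODE M21 lists 82 protein-coding genes with such names, of which 43 were in the count table, and 38 of these 43 reached the count minimum, out of 21718 genes in the table. The summed count is the measured value that chose them. Of the 38, 28 are clustered histone genes, whose symbols give the cluster (21 in Hist1 on chromosome 13, 4 in Hist2 on chromosome 3, 2 in Hist3 on chromosome 11 and 1, Hist4h4, on chromosome 6). The other 10, named H2af, H3f or H1f, are called replication-independent here, after the usual grouping of these genes. H2afj lies on chromosome 6 next to Hist4h4. The least abundant members were Hist1h4m with 10 counts, Hist1h4k with 11 and Hist1h1a with 12, and the genes just outside were Hist1h2bb with 9 counts, Hist1h3f, Hist1h4n and Hist2h2aa2 with 8 each and Hist1h2bj with 5.

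Histones are the proteins around which DNA is wound: H2A, H2B, H3 and H4 form the nucleosome core, and H1 binds the linker DNA. Clustered genes are the main supply during DNA replication. Their mRNAs typically end just after a short stem-loop instead of in a poly-A tail, and the stem-loop binding protein SLBP carries them through processing, export and decay. Replication-independent genes such as H3f3b and H2afz carry introns or ordinary poly-A signals and are expressed throughout the cell cycle. A minority of clustered genes, of which Hist1h1c is a known case, also make polyadenylated mRNA, often in differentiated cells.

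The samples were tumours of the mouse prostate, from an engineered model, and are labelled castration-resistant. Every recipient was irradiated with 900 rad at 6 weeks of age, given bone marrow, castrated at 8 weeks and operated on 16 weeks after castration. The marrow came from F10fl/fl donors without Cre (F10-intact, 3 samples numbered 1, 3 and 4) or from F10fl/fl; LysM-Cre+ donors, in which F10, the gene of coagulation factor X, is targeted in myeloid cells (F10-deleted, 3 samples with the same numbers). The comparison asks how the tumour transcriptome differs when F10 is targeted in donor myeloid cells. Both groups share the tumour model, the irradiation, the castration and the floxed F10 alleles of the donor cells, while host cells that survived irradiation, the tumour epithelium included, did not come from the donor. Poly-A RNA was sequenced, so clustered histone mRNAs that lack a poly-A tail were largely outside the assay by its design, and the levels below are of the RNA that this selection kept.

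Total counts ranged from 9237308 to 11821588 per sample. The F10 gene had 2, 6 and 17 counts with F10-intact marrow and 7, 4 and 9 with F10-deleted marrow, too few in whole tumour to check the deletion. F10-intact sample 4 stood apart on the first principal component (49.1% of the variance), with a score of 91.6 against -36.7 to 12.5 in the other 5, so the clustered results are also given without it. The luminal prostate markers were present in every sample (summed CPM of 2782 to 3507 in F10-intact and 2515 to 2792 in F10-deleted samples, where CPM is a count scaled to a common library size with TMM factors). Whether the samples came from separate animals is not stated in the labels. P-values therefore rest only on the spread between these samples, estimated partly across genes, and that spread may be technical. In bulk tumour RNA, fewer cells of a type and less RNA per cell cannot be told apart.

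The stem-loop was more frequent in the clustered than in the replication-independent members, without fully separating the classes. The loops of the members that carry the results below are shown first. The pattern searched was the 16-base histone stem-loop on the transcript strand after the stop codon. The pattern starts with GG, holds TTT and an A towards its middle and ends with CC. Bases 3 to 5 were required to pair with bases 12 to 14. The whole 16-base stretch is called the loop for short. It was found in 22 of the 28 clustered members and in 1 of the 10 replication-independent members, H2afx, against 61 of 21901 protein-coding genes in GENCODE M21 (0.279%). Capitals mark the stem-loop and lower case the 5 bases on each side, all read 5′ to 3′ on the transcript strand from GRCm38. These are the linker histone gene with the highest level (Hist1h1c, chr13:23739507-23739532, plus strand), a second linker gene (Hist1h1d, chr13:23555782-23555807, plus strand), the H3 gene with the lowest fold change (Hist2h3c2, chr3:96238480-96238505, minus strand), a pair of H4 genes with less common loops (Hist1h4i, chr13:22040961-22040986, minus strand, and Hist1h4j, chr13:21735432-21735457, plus strand) and H2afx (chr9:44335235-44335260, plus strand).
Hist1h1c: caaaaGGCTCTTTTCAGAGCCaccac
Hist1h1d: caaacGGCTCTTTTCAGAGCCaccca
Hist2h3c2: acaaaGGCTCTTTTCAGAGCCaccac
Hist1h4i: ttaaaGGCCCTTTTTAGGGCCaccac
Hist1h4j: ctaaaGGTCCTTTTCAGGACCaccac
H2afx: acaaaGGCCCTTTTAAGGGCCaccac

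The loop differed by family. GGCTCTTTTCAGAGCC was the loop of 14 members, namely 3 of H1, 4 of H2A, 5 of H2B and 2 of H3. All 8 H4 members with a loop had another form: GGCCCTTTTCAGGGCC in 5, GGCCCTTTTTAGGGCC in 2 and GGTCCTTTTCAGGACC in Hist1h4j. The motif was not found in Hist1h1a, Hist1h1b, Hist1h2bc, Hist1h4k, Hist2h2bb or Hist2h2be, which says only that these letters are not in the annotated transcripts.

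Most of the detected clustered genes have an annotated transcript that runs on past the loop. For each gene the annotated transcript with a loop and the most bases after it was taken, which need not be the gene's longest transcript. Between the stop codon and the loop lay 24 to 54 bases (median 31), and after the loop this transcript continued for 3 to 4884 bases (median 603). Of the 22 genes with a loop, 18 had at least 100 annotated bases after it and 4 had fewer. On the per-length scale (RPKM, the CPM per kilobase of exon), the median level was 1.66 in the 18, 0.700 in the 4 and 0.710 in the 6 without a loop. A poly-A signal (AATAAA or ATTAAA) was sought in the last 50 bases of each gene's longest annotated transcript. It stood there in 12 of the 28 clustered and 8 of the 10 replication-independent members. The plot of level against annotated tail shows Hist1h1c, with 840 bases after its loop, far above the rest.

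**Figure D1:**
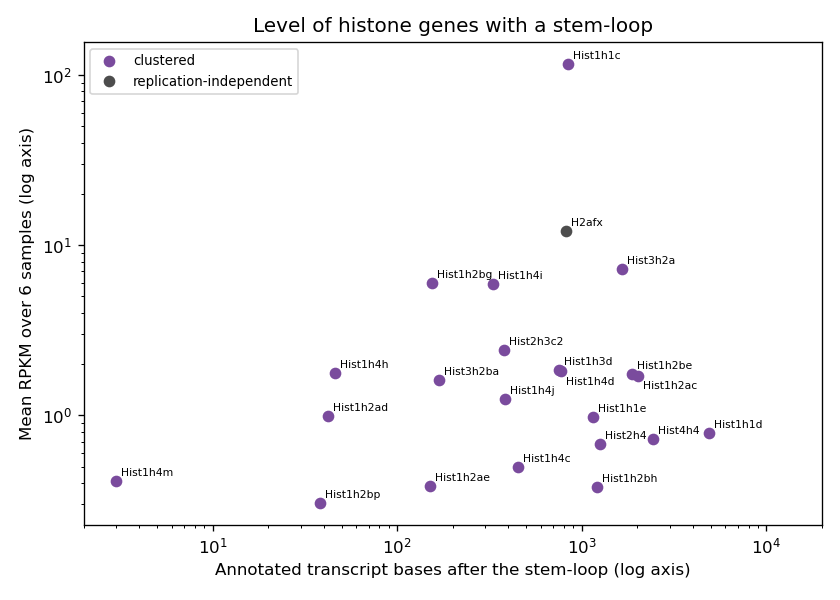
Mean RPKM over the 6 samples (y axis, log) against the annotated transcript bases after the stem-loop (x axis, log) for the 22 clustered members (purple) and H2afx (grey) that carry a stem-loop. Hist1h1c stands at 115 RPKM, the other clustered members at 7.20 RPKM or lower, and the 4 with fewer than 100 bases after the loop at 1.78 RPKM or lower.

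Promoters were compared over the RefSeq table for GRCm38.p6, which gives 250 bases before and 50 after each start and matched 34 of the 38 members (25 clustered and 9 replication-independent; Hist1h2bc, Hist2h2be, Hist2h4 and H2afx had no entry). Motifs were searched on both strands. CCAAT was in 19 of 25 clustered and 6 of 9 replication-independent members, against 37.4% of all 32817 promoters. TATAAA was in 16 of 25 and 1 of 9, against 13.6%. ATTTGCAT, the octamer of H2B promoters, was in 6 of 25 and 1 of 9, against 1.74%, and in 3 of the 6 clustered H2B genes. AAACACA, a box of linker histone promoters, was in 4 of 25 and 1 of 9, against 7.19%, and in 4 of the 5 clustered H1 genes. A match describes the letters only, not a site.

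The 150 bases before the RefSeq start are shown for both linker genes whose levels are described below, for Hist2h3c2 and, as a replication-independent gene, for H2afz. Each is read 5′ to 3′ on the gene's own strand, and capitals mark any of the 4 motifs on either strand. The regions are chr13:23738657-23738806 (plus strand) for Hist1h1c, chr13:23554882-23555031 (plus strand) for Hist1h1d, chr3:96239128-96239277 (minus strand) for Hist2h3c2 and chr3:137864337-137864486 (plus strand) for H2afz.
Hist1h1c: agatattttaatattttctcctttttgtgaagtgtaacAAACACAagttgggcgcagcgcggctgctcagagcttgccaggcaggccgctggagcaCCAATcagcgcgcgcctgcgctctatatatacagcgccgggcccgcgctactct
Hist1h1d: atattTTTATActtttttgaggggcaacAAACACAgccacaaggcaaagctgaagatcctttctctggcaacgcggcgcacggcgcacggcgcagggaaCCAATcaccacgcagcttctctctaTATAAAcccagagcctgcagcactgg
Hist2h3c2: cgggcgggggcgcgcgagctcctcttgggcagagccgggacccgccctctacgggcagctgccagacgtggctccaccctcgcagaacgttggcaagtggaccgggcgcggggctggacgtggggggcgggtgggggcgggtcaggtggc
H2afz: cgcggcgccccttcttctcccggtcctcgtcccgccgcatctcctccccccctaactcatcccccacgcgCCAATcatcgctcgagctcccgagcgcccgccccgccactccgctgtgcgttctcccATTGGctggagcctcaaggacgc
The linker genes hold an AAACACA box upstream of a CCAAT box, Hist1h1d also has TATAAA near its start, H2afz has CCAAT in both orientations, and Hist2h3c2 has none of the 4 motifs in this window.

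In these libraries most histone RNA came from replication-independent genes. The 38 members held 0.223% to 0.246% of all counts, and clustered genes made up 13.7%, 15.3% and 19.2% of the member counts in F10-intact samples 1, 3 and 4 and 12.3%, 10.5% and 11.4% in F10-deleted samples 1, 3 and 4. The clustered share was higher in each F10-intact sample than in any F10-deleted sample. H3f3b, which encodes the replacement histone H3.3, gave 59.3% to 61.9% of the replication-independent CPM. Hist1h1c, which encodes linker histone H1.2, gave 46.5% to 60.6% of the clustered CPM.

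Per length, the mean level over the 6 samples was 417 RPKM for H3f3b, 115 for Hist1h1c, 84.9 for H1f0, 72.6 for Hist1h2bc, 67.1 for H3f3a and 58.6 for H2afz. H2afv followed with 37.2 RPKM, H2afj with 26.4, H2afy with 22.4, H2afx with 12.1 and H2afy2 with 8.35. Only 2 clustered genes, Hist1h1c and Hist1h2bc, stood among these levels. The next clustered genes were Hist3h2a at 7.20 RPKM, Hist1h2bg at 5.99, Hist1h4i at 5.94 and Hist2h2be at 3.32, and the other 22 ranged from 0.259 to 2.42 RPKM. The RPKM of Hist1h1d and Hist1h2be is low partly by construction, since their exons as annotated add up to 7425 and 4446 bases.

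Clustered histone genes had lower values in the F10-deleted tumours, and replication-independent genes differed little. The summed level of the 28 clustered members was 333.5, 377 and 513 CPM in the F10-intact samples and 281, 229.6 and 257 CPM in the F10-deleted samples. The group means were 408 ± 93.7 and 256 ± 25.6 CPM (SD, n = 3 each), a ratio of 0.627, and the groups did not overlap. The summed level of the 10 replication-independent members was 2097, 2087 and 2161 CPM against 2007, 1954 and 2001 CPM, with means of 2115 ± 40.2 and 1987 ± 28.9 CPM (SD, n = 3 each) and a ratio of 0.940. These groups did not overlap either. No test was made of a summed level, since the members were chosen with results of these samples known.

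**Figure D2:**
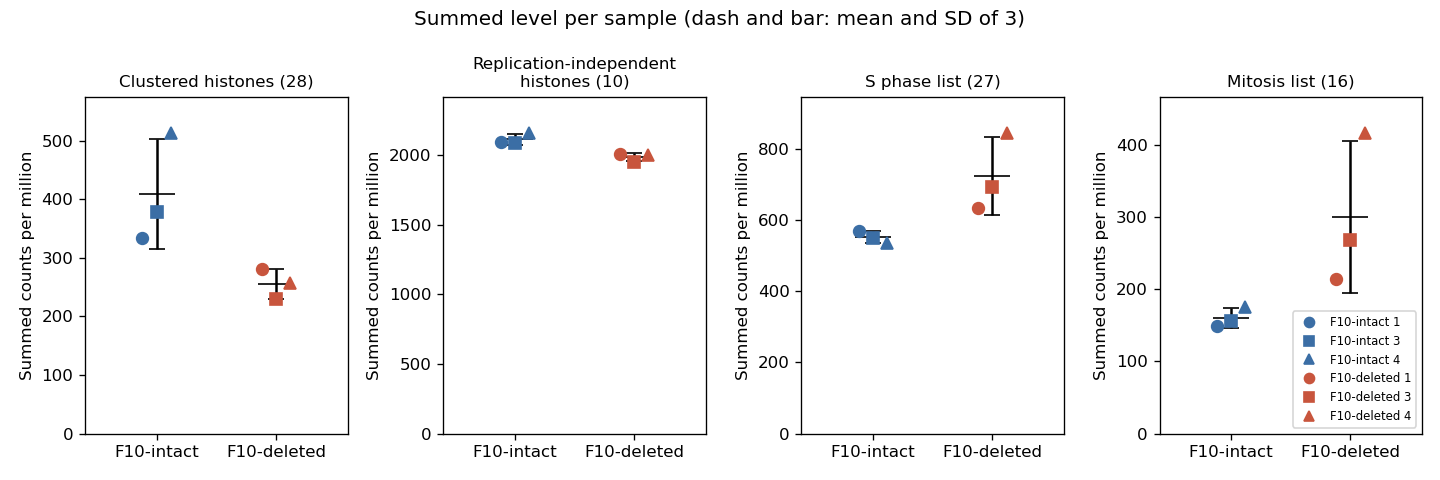
Summed CPM per sample (y axis, from 0) of the 28 clustered histone genes, the 10 replication-independent histone genes, the 27 S phase genes and the 16 mitosis genes in F10-intact (blue) and F10-deleted (red) samples, with the symbol showing the sample number and the dash and bar the mean and SD. Clustered histones lie at 229.6 to 281 CPM in the F10-deleted samples and 333.5 to 513 CPM in the F10-intact samples, while the S phase and mitosis sums are higher in every F10-deleted sample.

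The clustered sum was also taken without its most abundant genes. Without Hist1h1c it was 131.5, 156 and 261 CPM against 125, 101 and 138 CPM, a ratio of 0.663 with overlapping groups. With Hist1h2bc also left out, it was 65.1, 80.7 and 108 CPM against 58.2, 39.7 and 56.9 CPM, a ratio of 0.610 without overlap. F10-intact sample 4 had the highest value of the 6 for 21 of the 28 clustered members, F10-intact sample 3 for 4, F10-deleted sample 1 for 2 and F10-deleted sample 3 for 1. Without F10-intact sample 4, the ratio of the clustered sums went from 0.627 to 0.720, and the groups still did not overlap. The sum without Hist1h1c then had a ratio of 0.843, and that without both genes 0.707.

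By family, the ratio of summed CPM, F10-deleted over F10-intact, was 0.592 for clustered H1, 0.674 for H2A, 0.702 for H2B, 0.397 for H3 and 0.584 for H4. The groups did not overlap for H1, H2A and H3 and did for H2B and H4. The same ratio was 0.810 for replication-independent H1, where the groups did not overlap, and 0.971 for H2A and 0.948 for H3, where they did. Without F10-intact sample 4, the clustered ratios were 0.639 for H1, 0.733 for H2A, 0.919 for H2B, 0.434 for H3 and 0.735 for H4, with the same families overlapping. The H2B ratio therefore rested mostly on that sample, which had 184 CPM where the other 5 had 76.6 to 102 CPM.

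No histone gene passed the test. Of 15963 genes tested with the edgeR quasi-likelihood test, 7 passed an adjusted p under 0.05 (0.0439%), all higher in F10-deleted tumours, and 0 of the 28 histone members tested were among them. With the replicate number as a block, 2 genes passed (0.0125%) and again 0 members. The DESeq2 alternative called 0.827% of genes lower and 2.22% higher, and among histone genes it called Hist1h1c and Hist2h3c2 lower. Hist2h3c2 had passed the count filter only through its F10-intact samples, so its call is given as description only. In the edgeR fit without a count filter, 7 of all 28 clustered members had lower values at an unadjusted p under 0.05, and 0 had higher values. Lower values at that p were found for 3.71% of the 21678 genes with any count and 4.74% of the 15963 past the filter. The members had needed at least 10 counts.

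The direction was shared across the clustered genes. In the same unfiltered fit, the log2 fold change (F10-deleted over F10-intact) was below 0 for 24 and above 0 for 4, with a median of -0.77. Of 21678 genes, 50.8% were below 0, and the median of all was -0.01. These 21678 genes, the base also of the 7.27% and 52.1% below, include genes under the members' minimum of 10 counts. The CPM groups did not overlap for 8 of the 28, all lower, where 7.27% of genes did so in that direction. Without F10-intact sample 4, the mean CPM was lower in F10-deleted tumours for 21 of the 28, beside 52.1% of genes. Of the 28, 18 passed the low-count filter, and 5 of these (Hist2h3c2, Hist1h3d, Hist1h4d, Hist1h4j and Hist4h4) passed only through their F10-intact samples, so the 17 of 18 below 0 (52.7% of all genes tested) and the median of -0.81 are given as description only. The 10 members above the filter count in all 6 samples were Hist1h1c, Hist1h1d, Hist1h1e, Hist1h2ac, Hist1h2bc, Hist1h2be, Hist1h2bg, Hist1h4i, Hist2h2be and Hist3h2a, with log2 fold changes from -1.24 to -0.33. As description again, without F10-intact sample 4, 16 of the 18 then tested were below 0, again beside 52.7% of all genes, the median was -0.50, and 2 of the 18 had an unadjusted p under 0.05 with lower values (3.79% of all genes).

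**Figure D3:**
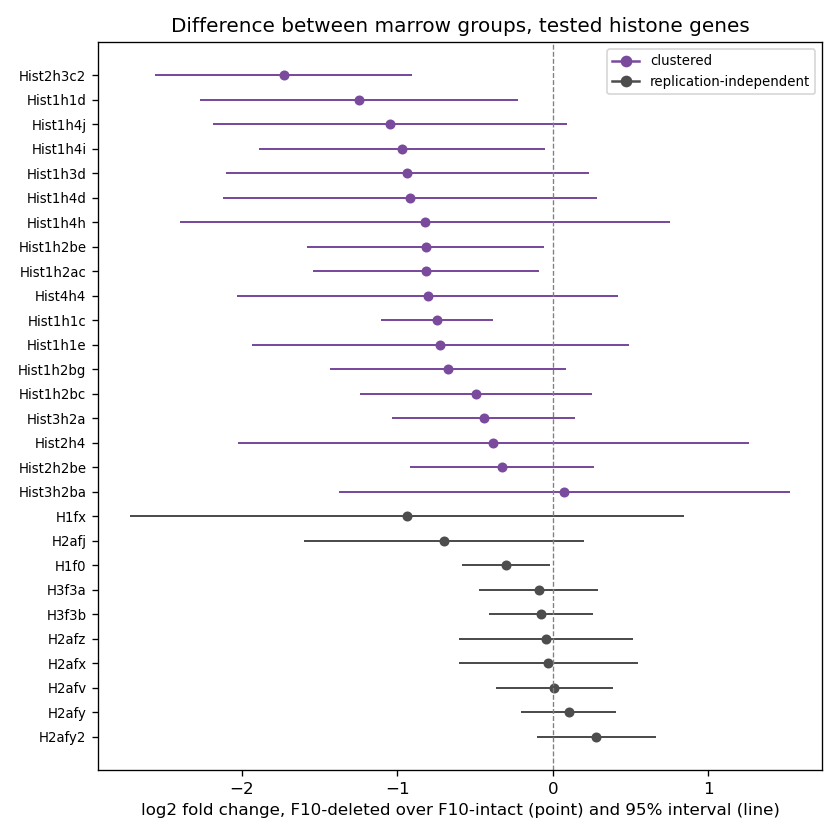
Log2 fold change, F10-deleted over F10-intact (x axis), with its 95% interval from the edgeR fit for the 18 clustered (purple) and 10 replication-independent (grey) histone genes tested. All clustered points but Hist3h2ba (0.08) lie left of 0, and 7 of the replication-independent points lie left of 0, between -0.94 and -0.03.

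The clustered linker histone genes, which supply H1, include the most abundant clustered member. Hist1h1c had 202, 221 and 252 CPM in F10-intact samples 1, 3 and 4 and 156, 129 and 119.7 CPM in F10-deleted samples 1, 3 and 4. Every F10-deleted sample was below every F10-intact sample, with means of 225 ± 25.3 and 135 ± 18.6 CPM (SD, n = 3 each). The log2 fold change was -0.74 ± 0.15 (SE, 95% interval -1.10 to -0.39), with an edgeR adjusted p of 0.131 and a DESeq2 adjusted p of 0.00239. It was -0.66 without F10-intact sample 4 and ranged from -0.82 to -0.66 over all 15 settings tried, with adjusted p between 0.00239 and 0.437.

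Hist1h1d, which encodes H1.3, had 4.61, 7.11 and 12.9 CPM against 2.84, 2.71 and 4.78 CPM. The groups overlapped, since F10-deleted sample 4 was above F10-intact sample 1. The log2 fold change was -1.24 ± 0.44 (SE, edgeR adjusted p = 0.351), and -0.77 without F10-intact sample 4. Hist1h1e, which encodes H1.4, had 1.29, 1.54 and 4.25 CPM against 1.26, 1.61 and 1.36 CPM, so that F10-intact sample 4 alone stood apart. Hist1h1b had 4, 0 and 14 counts against 4, 3 and 2, and Hist1h1a 0, 0 and 4 counts against 3, 4 and 1. Both fell under the count filter.

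Hist2h3c2, which encodes a canonical H3, had the lowest fold change of the tested members. Its counts were 33, 49 and 40 against 8, 16 and 14, or 3.05, 4.20 and 4.15 CPM against 0.840, 1.35 and 1.19 CPM. The groups did not overlap. The log2 fold change was -1.73 ± 0.35 (SE, 95% interval -2.55 to -0.91), with an edgeR adjusted p of 0.128 and a DESeq2 adjusted p of 0.0185. It was -1.67 without F10-intact sample 4. The gene passed the count filter only through its F10-intact samples, so these p-values are given as description only. In the edgeR fit without a count filter, the log2 fold change was -1.72 (edgeR adjusted p = 0.141). As annotated, 60.7% of the 120-base windows of this gene also occur in Hist2h3b, Hist2h3c1 or unnamed gene models, so its reads are uncertain between copies. Hist1h3d, the other H3 member, had 1.57, 3.69 and 3.84 CPM against 1.68, 0.846 and 2.22 CPM, with overlapping groups and a log2 difference of -0.93 (edgeR adjusted p = 0.560).

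The H2A genes of the clusters pair with H2B in the nucleosome. Hist3h2a, the most abundant of them, had 14.9, 18.0 and 20.5 CPM against 14.8, 9.05 and 15.4 CPM, with a fitted log2 change of -0.45 (edgeR adjusted p = 0.585). The F10-deleted samples 1 and 4 were close to F10-intact sample 1 or above it. Hist1h2ac had 4.25, 5.49 and 6.53 CPM against 2.94, 2.54 and 3.75 CPM. Its groups did not overlap, and its log2 fold change was -0.81 ± 0.31 (SE, edgeR adjusted p = 0.395) and -0.66 without F10-intact sample 4.

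Among low-count H2A genes, Hist1h2ad was singled out after its values were seen. It had 7, 12 and 13 counts against 1, 2 and 1, below the filter, a ratio of 0.122 per unit of library size (95% exact interval 0.0312 to 0.343, counting error only). The interval holds no replicate spread, and 62.0% of the gene's windows occur in other genes, H2A genes and unnamed gene models among them. Hist1h2ae, the other H2A member, had 2, 7 and 1 counts against 3, 1 and 4, with overlapping groups.

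The H2B genes were led by Hist1h2bc, whose annotated transcripts hold no stem-loop match. It had 66.4, 75.3 and 153 CPM against 67.0, 61.2 and 80.7 CPM. F10-intact sample 4 stood at 153 CPM while the other 5 samples lay within 61.2 to 80.7 CPM. The log2 fold change of -0.50 ± 0.32 (SE), with an edgeR adjusted p of 0.632, became -0.03 without that sample.

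Hist1h2be had 6.74, 8.91 and 14.1 CPM against 5.99, 4.57 and 6.31 CPM, without overlap. Its log2 fold change was -0.82 ± 0.33 (SE, edgeR adjusted p = 0.419), and -0.48 without F10-intact sample 4. Hist1h2bg had 3.23, 5.14 and 5.29 CPM against 2.42, 2.79 and 3.33 CPM, overlapping only through F10-intact sample 1 and F10-deleted sample 4, with a fitted log2 change of -0.67 (edgeR adjusted p = 0.514). Hist2h2be, which also lacks a stem-loop match, had 10.2, 10.8 and 8.09 CPM against 9.24, 6.09 and 7.85 CPM, with a fitted log2 change of -0.33 (edgeR adjusted p = 0.705).

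The 4 other H2B members were near the detection limit. Hist3h2ba was the only tested clustered gene with a value above 0, at 0.08 on the log2 scale (95% interval -1.37 to 1.52, edgeR adjusted p = 0.980). Hist1h2bh had 9, 5 and 11 counts against 6, 1 and 8, Hist1h2bp 2, 4 and 4 against 1, 3 and 0, and Hist2h2bb 1, 2 and 9 against 0, 2 and 6. All 3 fell under the count filter.

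Among the 9 H4 genes, Hist1h4i was the most abundant per length. It had 4.06, 4.29 and 8.81 CPM against 3.47, 2.28 and 2.98 CPM, without overlap, and a fitted log2 change of -0.97 ± 0.39 (SE, edgeR adjusted p = 0.429). Without F10-intact sample 4 this was -0.53. Hist1h4j, with the loop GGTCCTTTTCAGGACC, had 14, 12 and 15 counts against 9, 4 and 7, also without overlap (log2 fold change -1.05, edgeR adjusted p = 0.496).

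Of the other H4 genes, 4 were tested, with overlapping groups: Hist1h4d at -0.92, Hist1h4h at -0.82, Hist4h4 at -0.80 and Hist2h4 at -0.38 on the log2 scale, with edgeR adjusted p from 0.582 to 0.901. The H4 genes under the filter did not share a direction. Hist1h4c had 6, 4 and 7 counts against 3, 3 and 3. Hist1h4k had 0, 1 and 0 counts against 8, 2 and 0, and Hist1h4m 1, 1 and 0 against 7, 0 and 1, so that both were higher in F10-deleted sample 1. Of their windows, 60.6% and 87.3% occur in other genes.

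**Figure D4:**
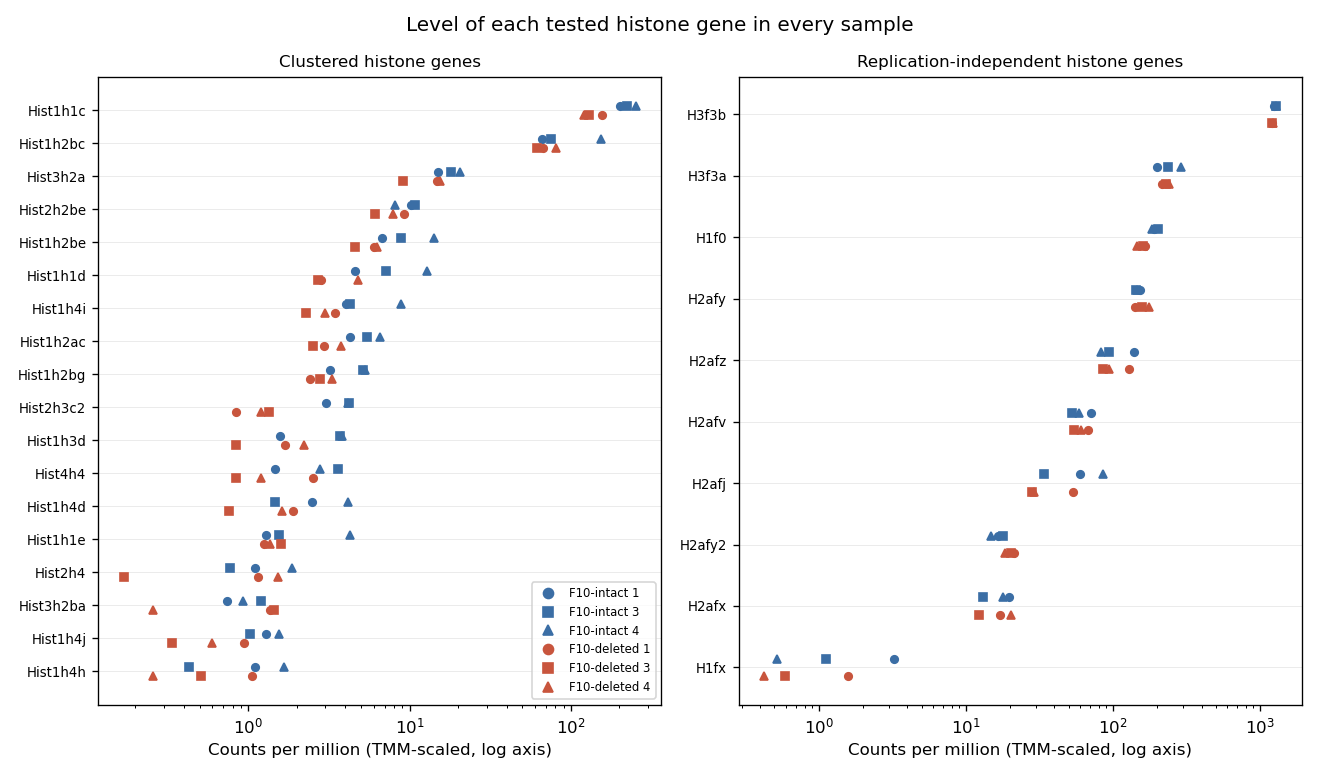
CPM per sample (x axis, log) of each tested clustered (left) and replication-independent (right) histone gene, F10-intact in blue and F10-deleted in red, with the symbol showing the sample number. The red points of Hist1h1c (119.7 to 156 CPM) and Hist2h3c2 (0.840 to 1.35 CPM) lie left of all blue points, while those of H3f3a, H2afz and H2afv lie among them.

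The replication-independent H3.3 genes were nearly level between the groups. H3f3b had 1244, 1291 and 1281 CPM against 1198, 1204 and 1220 CPM. These groups did not overlap, yet the difference was small, at -0.08 ± 0.14 on the log2 scale (SE, 95% interval -0.40 to 0.25, edgeR adjusted p = 0.903). H3f3a, the second H3.3 gene, had 199.9, 236 and 291 CPM against 214, 230.3 and 239 CPM, with overlapping groups and a log2 fold change of -0.09 (95% interval -0.47 to 0.29, edgeR adjusted p = 0.898), which was 0.06 without F10-intact sample 4. Of the 10 replication-independent members, 7 were below 0 (median -0.06, range -0.94 to 0.28), beside 52.7% below 0 and a median of -0.02 over all genes tested. For 2 of the 10, H3f3b and H1f0, the groups did not overlap with lower values in F10-deleted tumours (7.67% of all genes), and for 1, H2afy2, with higher values (8.99% of all genes).

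The variants of H2A have varied roles. H2afz and H2afv encode H2A.Z, placed at promoters and enhancers. H2afz had 139, 94.5 and 82.8 CPM against 129, 85.2 and 93.3 CPM, and H2afv 70.8, 52.3 and 58.4 CPM against 67.5, 54.4 and 60.8 CPM. In both groups sample 1 had the highest value of both genes. Their log2 fold changes were -0.04 (95% interval -0.60 to 0.51) and 0.01 (95% interval -0.36 to 0.38), with edgeR adjusted p of 0.973 and 0.990.

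H2afx encodes H2A.X, which is phosphorylated at DNA breaks, and it is the replication-independent member with a stem-loop. It had 19.6, 13.1 and 17.9 CPM against 17.0, 12.3 and 20.2 CPM, with a log2 fold change of -0.03 (95% interval -0.60 to 0.54, edgeR adjusted p = 0.980). H2afj had 59.8, 33.9 and 85.8 CPM against 53.1, 28.3 and 29.2 CPM. Its groups overlapped, and its log2 fold change of -0.70 ± 0.38 (SE), with an edgeR adjusted p of 0.573, was -0.35 without F10-intact sample 4.

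The macroH2A genes, whose proteins carry a large globular domain and mark inactive chromatin, were the replication-independent members with values above 0 other than H2afv. H2afy had 152, 144 and 146 CPM against 140.5, 159 and 175 CPM, with overlapping groups and a log2 fold change of 0.10 (95% interval -0.20 to 0.40, edgeR adjusted p = 0.837). H2afy2 had 16.6, 17.8 and 14.7 CPM against 21.1, 20.1 and 18.5 CPM, without overlap, and a fitted log2 change of 0.28 ± 0.16 (SE, edgeR adjusted p = 0.597).

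H1f0 encodes H1.0, a linker histone of differentiated and resting cells. It had 191, 203 and 183 CPM against 164, 159.8 and 145 CPM, with means of 192 ± 9.79 and 156 ± 10.1 CPM (SD, n = 3 each) and no overlap. The log2 fold change was -0.30 ± 0.12 (SE, 95% interval -0.58 to -0.02, edgeR adjusted p = 0.421), and -0.34 without F10-intact sample 4. Set side by side per length, the Hist1h1c level was 1.39, 1.44 and 1.81 times that of H1f0 in the F10-intact samples and 1.25, 1.06 and 1.09 times in the F10-deleted samples. H1fx, the least abundant variant, had 35, 13 and 5 counts against 15, 7 and 5, with sample 1 highest in both groups and a fitted log2 change of -0.94 ± 0.76 (SE, edgeR adjusted p = 0.723).

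Genes that make and process histone mRNA did not pass the test. The list of 17 such genes, all tested, had 13 values above 0 (47.3% of all genes were above 0) and a median log2 fold change of 0.12. At an unadjusted p under 0.05, 2 of the 17 were higher, beside 6.15% of all genes: Slbp, which encodes the stem-loop binding protein, and Eri1, an exonuclease that trims histone mRNA ends. Slbp had 24.1, 28.4 and 26.1 CPM against 30.1, 32.6 and 44.9 CPM (log2 fold change 0.45, edgeR adjusted p = 0.435). Eri1 had 23.7, 26.7 and 23.8 CPM against 28.8, 32.7 and 36.4 CPM (log2 fold change 0.40, edgeR adjusted p = 0.390). Both were higher in each F10-deleted sample than in any F10-intact sample, as were 8.99% of all genes tested. The 2 were picked by their p-values, so no result is read from them.

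Of 23 histone chaperones, which carry histones to chromatin, 15 had values above 0 (47.3% of all genes), the median was 0.09, and 0 passed. Hjurp, the chaperone of the centromeric H3 variant, had 169, 156 and 189.9 CPM against 228, 201 and 252 CPM (log2 fold change 0.41, edgeR adjusted p = 0.349). Hira, of the complex that deposits H3.3, had 24.7, 20.7 and 33.7 CPM against 19.5, 19.1 and 17.7 CPM (log2 fold change -0.49, edgeR adjusted p = 0.440). These 2, 1 in each direction, had an unadjusted p under 0.05, a share near that of all genes (6.15% higher and 4.74% lower), so no result is read from them.

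The replication genes had higher values where the clustered histone genes had lower ones. Of 27 S phase genes, 25 were above 0 (47.3% of all genes) with a median of 0.46, 9 were higher at an unadjusted p under 0.05 (6.15% of all genes), and 0 passed. Their summed level was 569, 550.1 and 534 CPM in the F10-intact samples and 633.5, 692 and 844 CPM in the F10-deleted samples, without overlap. Lig1, a DNA ligase of replication, had 49.7, 42.2 and 38.7 CPM against 66.8, 78.2 and 80.2 CPM (log2 fold change 0.79, edgeR adjusted p = 0.109), and Mcm3, part of the helicase that opens DNA ahead of the fork, 20.7, 21.3 and 19.5 CPM against 29.1, 32.1 and 49.5 CPM (0.85, edgeR adjusted p = 0.219).

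The mitosis list showed the same side. All 16 genes were above 0 (47.3% of all genes), with a median of 0.91, 14 were higher at an unadjusted p under 0.05 (6.15% of all genes), and 0 passed. The summed level was 148.5, 157 and 176 CPM against 214, 268 and 417 CPM, without overlap. Within the F10-deleted group, sample 4 had the highest S phase and mitosis sums and sample 1 the lowest, while the clustered histone sum was highest in sample 1 and lowest in sample 3.

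Markers of other tissues also stood at different levels in the groups. Of all genes tested, 47.3% were above 0 and 52.7% below. The 6 skeletal muscle markers were all above 0 with summed levels of 7.98 to 88.6 CPM in F10-intact and 608 to 1507 CPM in F10-deleted samples. The 4 adipocyte markers tested of 5 were above 0, with summed levels of 10.4 to 22.1 and 118 to 176 CPM, and 1, Fabp4, passed (log2 fold change 3.24, edgeR adjusted p = 0.00741). The 4 endothelial markers were above 0, with 19.5 to 38.0 against 39.5 to 51.5 CPM. Of the 6 luminal prostate markers 5 were below 0, with a median of -0.62, and the sums of the groups overlapped.

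Immune markers stood closer together, and their counts below 0 are again set beside 52.7% of all genes tested. The 4 macrophage markers were all below 0 with a median of -0.26, 2 of the 3 B and plasma cell markers tested of 4 were below 0, and the 4 T cell markers had a median of 0.03, all with overlapping sums. The mitochondrial share of counts was 2.45%, 3.23% and 5.75% against 3.14%, 3.23% and 4.58%. No marker was at 0 in all samples, and the part of these tissues, of RNA quality or of F10-intact sample 4 in the lower clustered histone values was not tested beyond the values given without that sample.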

How the data were processed

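The 6 tumours were profiled from poly-A RNA in directional libraries with single-end reads (120 bases), per the labels' protocols. The deposited file holds raw counts of reads for each Ensembl gene, with 1 column per sample. Per the submitters' processing notes, STAR 2.7.10a and the build GRCm38 were used, and DESeq2 is named without a version. Which program counted the reads, with which annotation and strand setting, and how it treated reads that map to several genes is not given in the sources used here. This bears on histone genes, since 31 of the 38 members share at least 1 window of 120 bases with another gene of GENCODE M21, the annotation used here for names, exon lengths and transcripts (21605 of 21718 identifiers matched). Among clustered genes described above, the shared part was 42.7% of windows for Hist1h2bg, 29.1% for Hist3h2a, 22.7% for Hist1h2bc, 22.3% for Hist1h1e and 3.75% for Hist1h1c. Exons of Hist3h2a overlap Trim17, and those of Hist1h1e overlap Hist1h2be, each on the same strand.

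Counts were tested with the edgeR quasi-likelihood test (edgeR 4.0.16, R 4.3.3, robust, TMM factors, filterByExpr with a minimum count of 10), with Benjamini-Hochberg adjustment over all 15963 genes and a threshold of 0.05. Fold changes set F10-deleted over F10-intact tumours. Standard errors come from the F statistic, whose spread is partly shared across genes, so they are not a gene's own replicate spread. Intervals are at 95%. CPM uses the TMM factors, and RPKM divides it by the kilobases of merged exons. Count intervals cover only counting error. The scripts were tested on simulated data. Alternatives changed 1 choice at a time: the scaling (RLE, upper quartile, or TMM after setting aside the 50 genes of highest count), the tool (limma-voom, limma 3.58.1, or DESeq2 1.42.0), the filter (none, or at least 1 CPM in 3 samples), a non-robust fit, the threshold (0.1), the member minimum (50 counts), a replicate block, and each sample left out in turn.

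Both groups carry replicate numbers 1, 3 and 4 in the labels. Same-numbered samples deviated together from their group means (correlations across genes of 0.350, 0.135 and 0.181). Samples with different numbers were not compared in this way. No shared day or litter is named in the labels, so the main fit left the number out and the replicate block was an alternative only. Within each group all samples differed by more than sampling noise (chi-square per degree of freedom from 24.4 to 84.3). The members and lists were chosen with earlier results of these data known. The rule for names took members with an unadjusted p under 0.05, the 6 clustered and 8 replication-independent members of highest RPKM, a set of variants, and the listed genes of smallest p, and the remaining members were named to account for all. The recipients' own genotype is not reported here.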

Additional observations from a re-analysis of the deposited data

How the results depend on the processing

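The count of histone genes past the threshold was 0 in every setting but DESeq2, which called 2, Hist1h1c and Hist2h3c2. The latter had passed the count filter only through its F10-intact samples. Over all genes, 7 passed in edgeR, 1737 had an unadjusted p under 0.05, and 2 passed with TMM without the 50 most abundant genes, 2 with limma-voom, 2 with the filter of 1 CPM in 3 samples, 3 with the non-robust fit, 85 at an adjusted p under 0.1, 487 with DESeq2, and 0 to 72 when 1 sample was left out. With the replicate block, which pairs same-numbered samples, 2 passed, the clustered median was -0.78 and no histone gene changed its call. Leaving out 1 sample moved the median of the tested clustered members between -0.94 and -0.50, with 18 or 19 members tested. In the main fit, 5 of the 18 clustered members tested had passed the filter only through their F10-intact samples. The clustered medians given here are therefore description only. The median of the replication-independent members moved between -0.11 and 0.089 when 1 sample was left out. The log2 ratio of the replication-independent sums moved between -0.10 and -0.047 (from -0.090). Of the named genes, 4 replication-independent genes near 0 changed sign when 1 sample was left out: H2afx ranged from -0.20 to 0.18 (3 of the 6 above 0), H2afz from -0.21 to 0.24 (3 above 0), H2afv from -0.087 to 0.17 (3 below 0) and H3f3a from -0.18 to 0.059 (1 above 0). The cause was not tested. No clustered gene named by the rule changed sign. Low counts kept 10 clustered members out of the filtered test. The family ratios and the count of lower members without F10-intact sample 4 were chosen after seeing the data.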
